A study of Mus musculus with 5 samples.

Results

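Genes of detoxification and metal binding, namely the 5 genes Aldh3a1, Gstm1, Fth1, Mt2 and Mt1, were followed on spotted cDNA arrays that set NIH3T3 mouse fibroblasts transfected with Erbb2 against their parental line. The members were the probes annotated with exactly 1 gene symbol where that symbol was one of these names. Every one of the 5 had 1 such probe, so the set held 5 of the 9669 genes named by a single symbol. The genes were picked from results of the same comparison of cell lines, so their ratios between the lines are given as a description, without a test. There were 2 groups of cells on each array. NIH3T3 is an immortalised mouse fibroblast line, and the other cells were NIH3T3 made to express human ERBB2 (HER-2/NEU), a receptor tyrosine kinase, all the time from a cytomegalovirus promoter. Both lines grew in the same medium with serum. The labels do not say whether the transfected line is 1 clone, nor whether preparations A and B came from separate cultures, and the spread between them may be technical. Preparation A gave 3 arrays (A1, A2 and A3) and preparation B gave 2 (B1 and B2). Erbb2 cDNA carried Cy3 on A1, A2 and B1 and Cy5 on A3 and B2.

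These genes belong to systems by which cells deal with reactive chemicals and metals. ALDH3A1 oxidises aldehydes, among them those from lipid peroxidation, and its gene is a known target of the aryl hydrocarbon receptor. GSTM1 joins glutathione to electrophiles, and many genes of its kind are induced by the transcription factor NRF2. FTH1, the ferritin heavy chain, oxidises iron for storage inside the ferritin shell. Metallothioneins 1 and 2 are small cysteine-rich proteins that bind zinc, copper and cadmium, and the transcription factor MTF1 switches their genes on through metal response elements.

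Every value below is a log2 ratio, with transfected cells over parental cells. This direction is likely and not settled, because it takes Cy5 as the numerator of the deposited ratios, Cy5 being the first channel in the labels. If Cy3 were the numerator, each value would have the opposite sign. Arrays of the same dye orientation correlated across probes with r between 0.45 and 0.52 as deposited, and arrays of opposite orientation with r between -0.54 and -0.17. The arrays held values for 5368 to 17463 of 20205 probes. A ratio on bulk RNA cannot tell fewer cells that express a gene from less RNA per cell, and it gives no level in either line. Of 11 fibroblast markers, 6 were tested, of which 3 fell (Col1a1, Col1a2 and Fn1) and 0 rose. At least 1 array had a value for 3 of 5 markers of epithelium and 2 of 5 of macrophages and leukocytes. The same held for 1 of 4 markers of endothelium and 3 of 4 of adipocytes. Cdh1 of epithelium, Csf1r of macrophages and Pecam1 of endothelium had no value on any array, which does not show absence. Krt19 of epithelium and Flt1 of endothelium, the tested markers of other cell types, did not pass, at 0.19 and 0.16. No probe annotated with Erbb2 alone was used, so the transgene itself was not checked.

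Aldh3a1, Gstm1 and Fth1 were lower in Erbb2-transfected cells by 2.24 to 2.61 times on average, Mt2 was 1.69 times higher, and Mt1 was centred near 0. Of the 5 genes, 4 could be tested, having a value in both dye orientations of both preparations, and all 4 passed in the comparison they were picked from. Of all 4892 features tested (a gene, or a probe without a single symbol), 6.79% passed in limma (adjusted p below 0.05), with 2.25% higher and 4.54% lower. Values of 1 sign on every array with a value were found for 24.3% of these features, with all below 0 for 13.4%, among them Aldh3a1 and Fth1, and all above 0 for 10.9%, among them Mt2. The choice of members fixes these counts, so nothing is read from them.

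**Figure D1:**
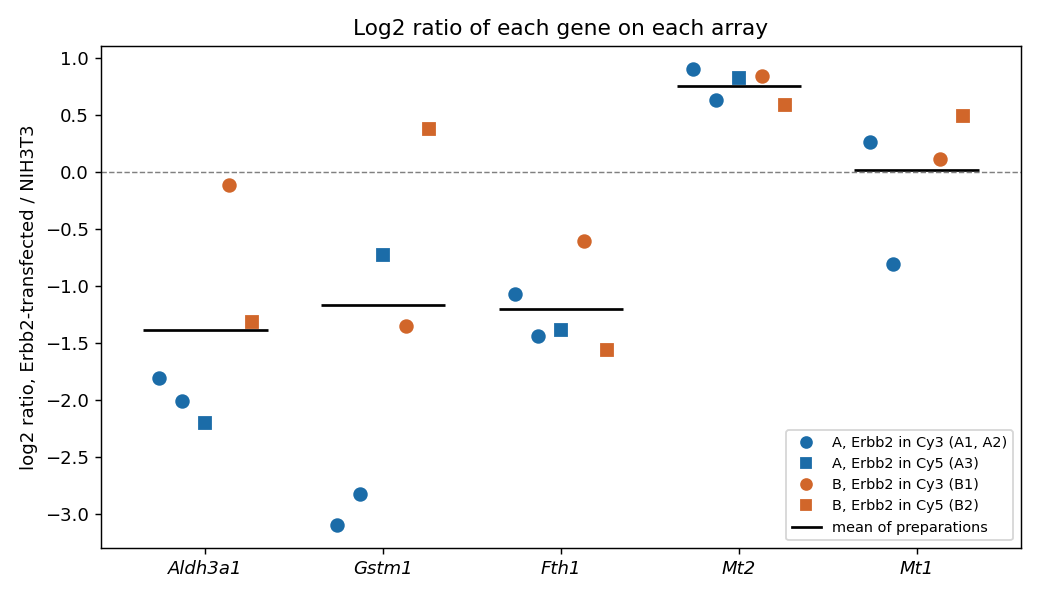
Log2 ratio (Erbb2-transfected over NIH3T3, y axis) of each of the 5 genes on each array, with colour for the preparation, shape for the dye of the Erbb2 cDNA and a black bar for the mean of the 2 preparation means. Mt2 lies between 0.59 and 0.91 on all 5 arrays, whereas Gstm1 runs from -3.10 on A1 to 0.38 on B2.

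Aldh3a1 had log2 ratios of -1.81 on A1, -2.01 on A2, -2.20 on A3, -0.12 on B1 and -1.32 on B2. All 5 arrays lay below 0, and the 3 of preparation A lay below both of preparation B. The preparation means were -2.06 and -0.72, which gave -1.39 ± 0.95 (SD, n = 2). The repeat arrays A1 and A2, which share preparation and dyes, differed by 0.21, against a median absolute difference of 0.43 over the 5175 probes measured on both. The low spread within preparation A thus came with a wide gap to B1, the array nearest to 0.

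Gstm1 had -3.10 on A1, -2.82 on A2, -0.73 on A3, -1.35 on B1 and 0.38 on B2. Within each preparation, the arrays with Erbb2 cDNA in Cy3 were the low ones and the array with Erbb2 cDNA in Cy5 was the high one. Its mean was -1.17 ± 0.96 (SD, n = 2), with -1.84 in preparation A and -0.49 in preparation B. Averaged by dye, it had -2.42 with Erbb2 cDNA in Cy3 and -0.18 with Erbb2 cDNA in Cy5. The mean therefore depends on which arrays enter, and it was -1.72 without A3 and -0.73 without B1. The value on B2, the only one above 0, also had, apart from a constant of that array, exactly the log2 value that 2 small whole numbers (at most 300) give when divided, here taken as the sign of a dim spot. Such values made up 49.3% of the values on B2, against 2.78% after the constant was shifted. Without such spots, which for Gstm1 means without B2, the mean was -1.60. That leaves preparation B with B1 alone, an array with Erbb2 cDNA in Cy3.

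Fth1 had -1.07 on A1, -1.44 on A2, -1.39 on A3, -0.60 on B1 and -1.56 on B2. Its arrays were all below 0, and those of the preparations overlapped. The means were -1.32 in preparation A and -1.08 in preparation B, or -1.20 ± 0.17 (SD, n = 2). B1 was the highest array for Aldh3a1 and for Fth1, but not for Gstm1. None of the 5 values of Fth1, nor of Aldh3a1, was a ratio of small whole numbers.

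Mt2 had 0.91 on A1, 0.63 on A2, 0.83 on A3, 0.84 on B1 and 0.59 on B2. The 5 arrays spanned 0.32, the smallest range of the 5 genes, and preparations and dye orientations overlapped. The mean was 0.76 ± 0.06 (SD, n = 2). The values on A1, A3 and B1 were ratios of small whole numbers, and the mean was 0.61 without them.

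Mt1, the other metallothionein of the set, had 0.26 on A1, -0.80 on A2, 0.12 on B1 and 0.49 on B2, and no value on A3. The 4 values lay on both sides of 0, and those of A1 and A2 differed by 1.07, more than the 0.43 at the median of all probes. Its mean was 0.02 ± 0.41 (SD, n = 2). On the 4 arrays with both genes Mt1 lay below Mt2, and Mt1 minus Mt2 ran from -1.44 on A2 to -0.10 on B2. Mt1 did not enter the test, so this gap was not tested. The transcripts of the 2 genes are close relatives, and cDNA probes of either may take up cDNA of the other, which was not tested. The values on B1 and B2 were ratios of small whole numbers.

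The promoters of Mt2 and Mt1 are shown because these neighbours on chromosome 8, with starts 6471 bases apart, are known to share control by metals, while their ratios here differed on A2. The sequences are from RefSeq (GRCm38.p6, plus strand), and hold the 250 bases before the annotated start, at chr8:94172368-94172617 for Mt2 and chr8:94178839-94179088 for Mt1. Capitals mark the letters of the metal response element, TGCACNC or TGCGCNC, on either strand.
Mt2: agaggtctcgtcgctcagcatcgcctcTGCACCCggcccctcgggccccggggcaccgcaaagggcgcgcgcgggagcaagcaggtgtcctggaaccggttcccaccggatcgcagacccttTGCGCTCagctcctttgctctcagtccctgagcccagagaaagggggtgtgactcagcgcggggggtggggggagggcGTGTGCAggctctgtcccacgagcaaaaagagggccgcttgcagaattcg
Mt1: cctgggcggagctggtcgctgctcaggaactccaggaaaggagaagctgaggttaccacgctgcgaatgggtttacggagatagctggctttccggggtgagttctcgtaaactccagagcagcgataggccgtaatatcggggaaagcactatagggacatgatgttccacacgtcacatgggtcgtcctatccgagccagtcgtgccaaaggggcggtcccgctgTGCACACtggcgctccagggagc
The stretch of Mt2 shows 3 matches and that of Mt1 shows 1. With the 50 bases after the start, Mt2 had 4 matches and Mt1 had 3. The difference in the number of matches thus depends on where the annotated start lies and on the stretch counted. Of 32851 RefSeq windows of 300 bases, 25.7% held at least 1 match and 1.97% at least 3. A match is only a description of the letters.

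Promoter windows were listed for 4 of the 5 genes, with 2 starts each for Gstm1 and Fth1, and none for Aldh3a1. The windows of Gstm1 share 145 bases and held 1 match to the metal response element, the same site in both, and those of Fth1 held 0. The core of the antioxidant response element bound by NRF2, TGACNNNGC on either strand, was found once in Mt2 and 0 times in the windows of Gstm1, Fth1 and Mt1, against 12.4% of all windows. The core of the xenobiotic response element bound by the aryl hydrocarbon receptor, GCGTG on either strand, was found in 32.4% of all windows. It occurred 2 times in Mt2, once in Mt1, once in the stretch shared by the windows of Gstm1 and once in 1 of the 2 windows of Fth1. In Gstm1 and Mt2, 1 of these matches overlapped a match to the metal response element.

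The choice of members was not made on the difference between preparations, which was tested with limma on 5 arrays with the dye as a covariate. As the members were picked from results on the same arrays, neither this test nor that of the dye effect is fully independent of the choice. The test between preparations compares these 2 preparations alone. Preparation A minus preparation B was -1.40 ± 0.39 (SE) for Aldh3a1 and -1.39 ± 0.38 (SE) for Gstm1, on the log2 scale. The 95% confidence intervals ran from -2.23 to -0.58 and from -2.19 to -0.59. By unadjusted p they ranked 25 and 21 among 4892 features, but neither passed after Benjamini-Hochberg adjustment (adjusted p = 0.468 and 0.459 by limma). Leaving out each array in turn gave adjusted p between 0.105 and 0.998 for Aldh3a1 and between 0.0987 and 0.998 for Gstm1. The difference of Aldh3a1 was -0.88 without B1 and -1.79 without A3 or without B2. Over all features 1 passed, or 0.0204%, and 330 had an unadjusted p under 0.05.

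For Fth1 and Mt2 the interval of the difference between preparations spanned 0. A minus B was -0.30 for Fth1, with an interval from -1.13 to 0.52, and 0.06 for Mt2, with an interval from -0.73 to 0.85 (adjusted p = 0.965 and 0.992 by limma). All these intervals rest on the spread between arrays, with 1 preparation on each side, and leave out any spread between preparations of one kind.

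**Figure D2:**
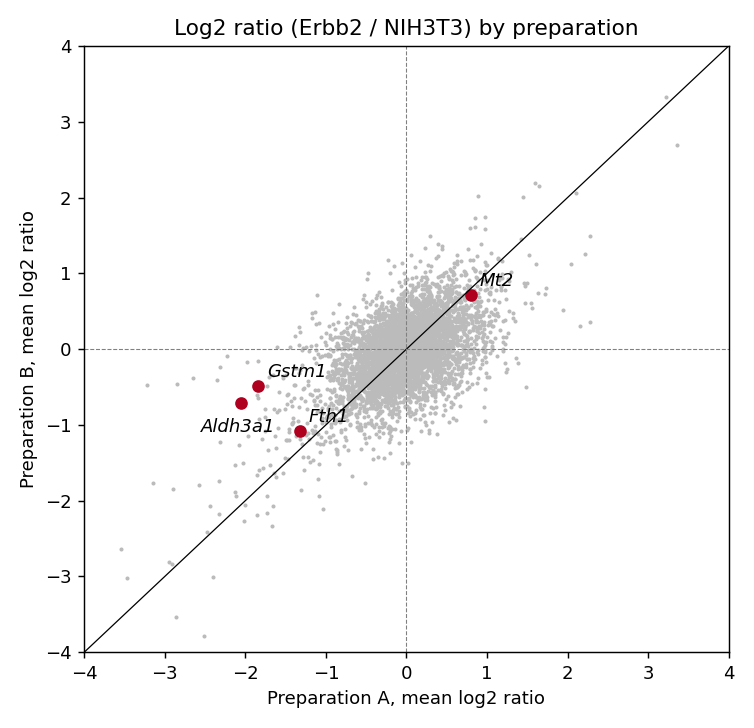
Mean log2 ratio in preparation A (x axis) and preparation B (y axis) of 4892 tested features, with 4 of the genes in red and the diagonal of equal values; 11 features outside the axes are not drawn. Mt2 and Fth1 lie close to the diagonal, and Aldh3a1 and Gstm1 lie above it, at -2.06 and -1.84 in A against -0.72 and -0.49 in B.

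The dye effect, on which the choice of members was not made either, was the ratio with Erbb2 cDNA in Cy5 minus that with Erbb2 cDNA in Cy3. It was 2.02 ± 0.38 (SE) for Gstm1, with an interval from 1.22 to 2.82 (adjusted p = 0.0231 by limma), and Gstm1 was higher in Cy5 orientation in both preparations, by 2.23 in A and by 1.73 in B. Over all features 29 passed, or 0.593%, of which 7 were higher. This call was lost without A3, B1 or B2 (adjusted p = 0.892, 0.494 and 0.263), after scaling of the arrays to equal spread (adjusted p = 0.0878) and without a term for preparation (adjusted p = 0.127). The size changed little in these settings, from 1.73 to 2.25.

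The other genes showed no called dye effect. It was -0.68 for Aldh3a1, -0.49 for Fth1 and -0.08 for Mt2 (adjusted p = 0.478, 0.624 and 0.954 by limma). Their intervals ran from -1.503 to 0.142, from -1.31 to 0.34 and from -0.87 to 0.72. Dye effects of any size within those bounds remain compatible with the 5 arrays.

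**Figure D3:**
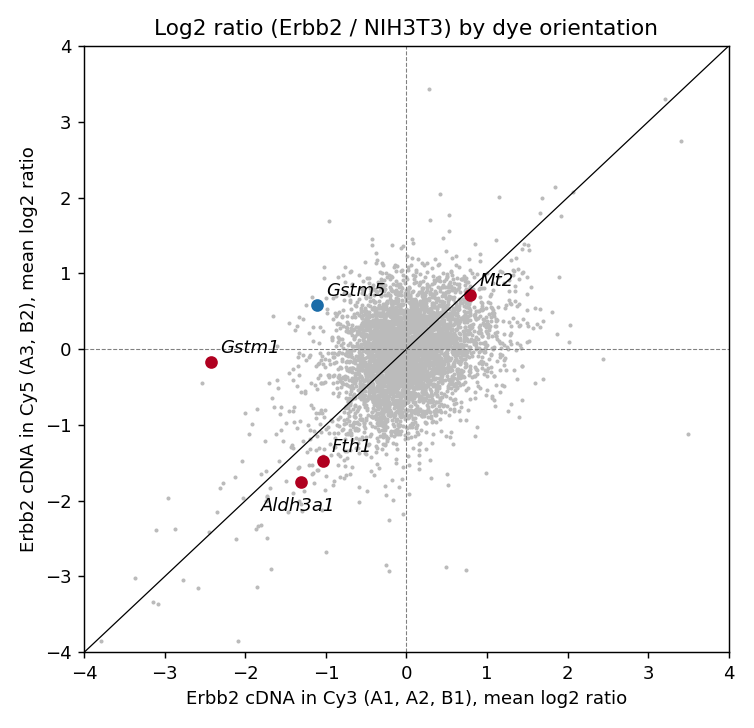
Mean log2 ratio over arrays with Erbb2 cDNA in Cy3 (x axis) and in Cy5 (y axis) of 4892 tested features, with 4 of the genes in red, Gstm5 in blue and the diagonal of equal values; 10 features outside the axes are not drawn. Gstm1 stands far above the diagonal, at -2.42 against -0.18, and Mt2, Fth1 and Aldh3a1 lie nearer to it.

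Other glutathione S-transferases of the mu class, named after their values were seen, shared parts of the Gstm1 pattern. Gstm2 had -2.90 on A1, -2.15 on A2, -1.05 on B1 and 0.43 on B2, with no value on A3. It followed Gstm1 on all 4 shared arrays, with a root mean square difference of 0.38. Gstm5 had -1.69 on A2, 1.02 on A3, -0.52 on B1 and 0.14 on B2, again higher with Erbb2 cDNA in Cy5, and its mean of -0.26 ± 0.10 (SD, n = 2) did not pass. Gstm3 had -1.25 on A2, -0.88 on A3 and -0.06 on B2. On B1 and B2 alone, Gstm7 had 0.35 and 0.77. From B1 to B2 the ratio was higher by 1.73 for Gstm1, 1.48 for Gstm2, 0.66 for Gstm5 and 0.42 for Gstm7, whereas over 11045 features the median of that difference was -0.03, with quartiles of -0.54 and 0.39. Some genes of other classes did so too, by 1.10 for Gsta2, 1.04 for Gstt3, 0.81 for Gsto1 and 0.76 for Gstt2. B2 minus B1 was below 0 for 4 others, at -0.96 for Gsto2, -0.61 for Gsta4, -0.46 for Gstp1 and -0.33 for Gstz1. B2 thus lay above B1 for 8 of 12 glutathione S-transferases, Gstm1 included. Mu-class genes are near-identical in parts, so the separate values of these probes are uncertain, and cross-hybridisation was not tested.

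Among 16 glutathione S-transferase genes with a value besides Gstm1, 5 were tested and 0 passed in limma, with 2 at an unadjusted p under 0.05, which 1118 of all 4892 features (22.9%) reached. Their median was -0.23, against -0.02 over all features. Gstt2 and Gstt3, of the theta class, had 0.52 ± 0.02 and 0.62 ± 0.38 (SD, n = 2). They had 0.33 and 0.36 without B2, and 0.71 and 0.88 without B1. On single arrays Gstt2 ran from 0.12 on B1 to 0.88 on B2.

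**Figure D4:**
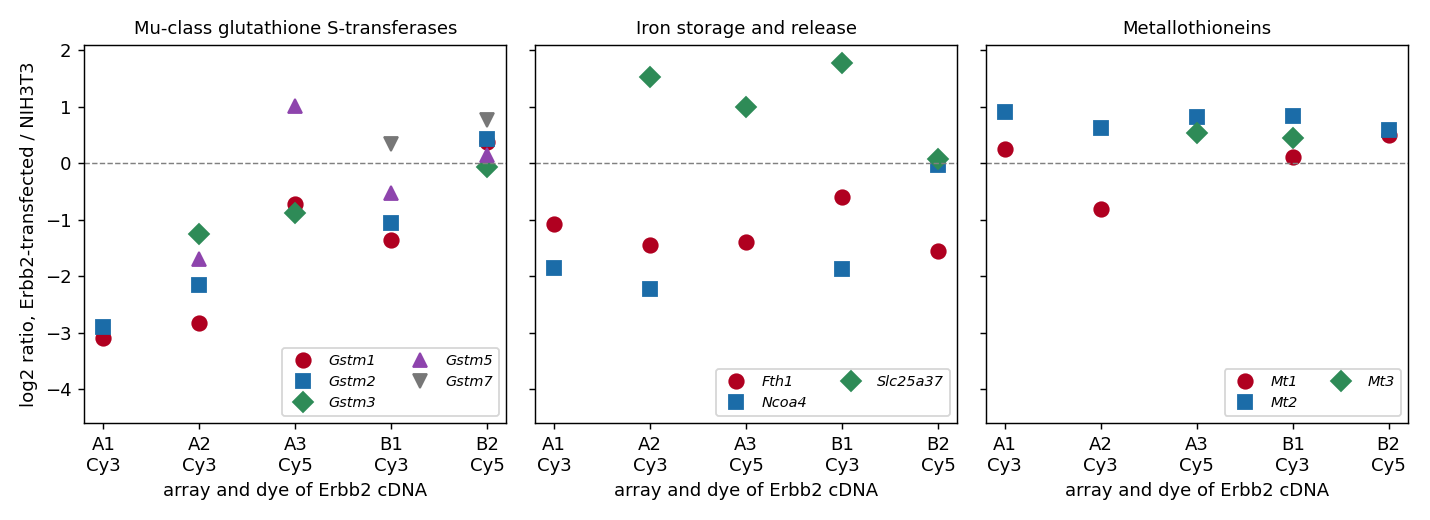
Log2 ratio (Erbb2-transfected over NIH3T3, y axis) on each array (x axis, with the dye of the Erbb2 cDNA) of mu-class glutathione S-transferases, of iron genes and of metallothioneins; missing points are missing values. Gstm1 and Gstm2 lie close together on A1, A2, B1 and B2. Ncoa4 lies below Fth1 on A1, A2 and B1 and above it on B2, at -0.04 against -1.56.

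Of 11 further aldehyde dehydrogenase genes with a value, 2 were tested and 0 passed in limma, with 0 at an unadjusted p under 0.05, against 22.9% of all features. Aldh2, the mitochondrial enzyme of ethanol metabolism, had 0.00, with values on both sides of 0. Aldh3b1 had 0.10, and -0.02 to 0.21 without 1 array. Aldh3a2, of the same family as Aldh3a1, had -1.44 on A2 against -0.31 on B1 and -0.36 on B2, and was not tested. Aldh16a1, outside the test with no value on A3, had 0.03.

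Of the aryl hydrocarbon receptor list, 3 genes had a value and 1 was tested. Arnt, the receptor's partner, had -0.48 ± 0.30 (SD, n = 2) and did not pass (adjusted p = 0.211 by limma). It had -0.89 without B1, -0.06 without B2 and -0.28 without A3. Cyp1b1, a target like Aldh3a1, had 0.23 on A3, -0.34 on B1 and 0.15 on B2.

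In the list of NRF2, its inhibitor KEAP1, glutathione synthesis and NRF2 targets, 1 of 12 tested genes fell, 0 rose and 11 did not pass. Their median was -0.30, against -0.02 over all features, and 8 of 12 lay below 0, against 52% of all features. Ephx1, microsomal epoxide hydrolase, fell by 1.67 ± 0.57 (SD, n = 2; adjusted p = 0.00174 by limma), with -1.63 on A2, -2.52 on A3, -1.04 on B1 and -1.49 on B2. On these arrays it differed from Aldh3a1 by 0.53 as a root mean square, a pair chosen after its values were seen. Gclm, the modifier subunit of glutathione synthesis, had -0.61, below 0 on all 5 arrays, and -0.38 without A3. Pgd of the pentose phosphate pathway and Akr1b8, an aldo-keto reductase, had -0.39 and -0.38, and Pgd had -0.23 without A3 and -0.25 without B2.

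Of 13 tested genes for removal of peroxide and superoxide, 1 rose, 0 fell and 12 did not pass, with a median of -0.11. Prdx2, a cytosolic peroxiredoxin, rose by 1.17 ± 0.05 on the log2 scale (SD, n = 2; adjusted p = 0.00653 by limma), with 1.26 on A1, 1.58 on A2, 0.85 on A3, 1.14 on B1 and 1.25 on B2. Its relatives Prdx1 and Prdx4 had -0.45 and -0.54, both below 0 on all 5 arrays, and neither passed. Glrx, glutaredoxin, had 0.55, and 0.34 without A3.

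Around ferritin, 4 genes of iron storage, uptake and regulation were tested, of which 1 rose and 3 did not pass. Slc25a37, mitoferrin, which carries iron into mitochondria, rose by 1.09 ± 0.24 (SD, n = 2; adjusted p = 0.0108 by limma), with 1.53 on A2, 0.99 on A3, 1.78 on B1 and 0.07 on B2. It did not pass without B1 (0.67, adjusted p = 0.352). Fech, ferrochelatase of haem synthesis, had -0.42. Ncoa4, the receptor that delivers ferritin to autophagy, had -1.86 on A1, -2.23 on A2, -1.87 on B1 and -0.04 on B2. With no value on A3, it was outside the main test. It passed in limma without A3, a setting that leaves preparation A without an array of Erbb2 cDNA in Cy5. Ncoa4 was lower than Fth1 on A1, A2 and B1, where Fth1 had -1.07, -1.44 and -0.60, and higher than Fth1 on B2. B2 was the only array of Ncoa4 with Erbb2 cDNA in Cy5. Alas1, also outside the test, had 0.41 on average.

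In the list of zinc and copper handling, 1 of 10 tested genes fell, 0 rose and 9 did not pass, with a median of -0.25. An unadjusted p under 0.05 by limma was reached by 5 of 10, against 22.9% of all features. The same count was 2 of 12 in the NRF2 list, 3 of 13 for peroxide and superoxide removal and 16 of 50 over all 8 lists. Atp7a, a copper-exporting pump, fell by 0.84 ± 0.33 (SD, n = 2; adjusted p = 0.041 by limma), below 0 on all 5 arrays from -1.47 on A1 to -0.50 on B1. It did not pass without A3, B1 or B2 (adjusted p = 0.154, 0.126 and 0.101), nor after scaling to equal spread or quantile normalization (adjusted p = 0.0905 and 0.0786). Mtf1, the activator of metallothionein genes, had -0.53 ± 0.58 (SD, n = 2) and did not pass. Slc31a1, the copper importer, had -0.63. It had -0.34 without A3, and passed without A1 (-0.69, adjusted p = 0.0497). Slc39a9, a zinc transporter, had -0.57. Mt3, the metallothionein known from brain, had 0.54 on A3 and 0.45 on B1 alone.

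Glucocorticoids also induce metallothionein genes. Of 10 other glucocorticoid-induced genes listed, 3 were tested and 0 passed in limma, with 2 at an unadjusted p under 0.05, against 22.9% of all features. Glul, glutamine synthetase, had 0.78 over 2 probes. It passed with only the probe measured in both orientations of both preparations (1.28, adjusted p = 2.6e-05 by limma). Glul had no value on A1, so its ratio stayed at 0.78 without that array. It passed there (adjusted p = 0.0299 by limma) only because the spread pooled over features and the adjustment changed. Dusp1, a phosphatase of MAP kinases, had -0.60, and passed without A1 (-0.71, adjusted p = 0.0473). Cebpd, which was not tested, had -1.01 on A1, -0.97 on A2, -0.27 on B1 and 0.83 on B2.

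Over all 8 lists, 4 of 50 tested genes passed, or 8%, near the 6.79% of all features, and 2 rose and 2 fell. No list gene passed the test between preparations by limma.

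**Figure D5:**
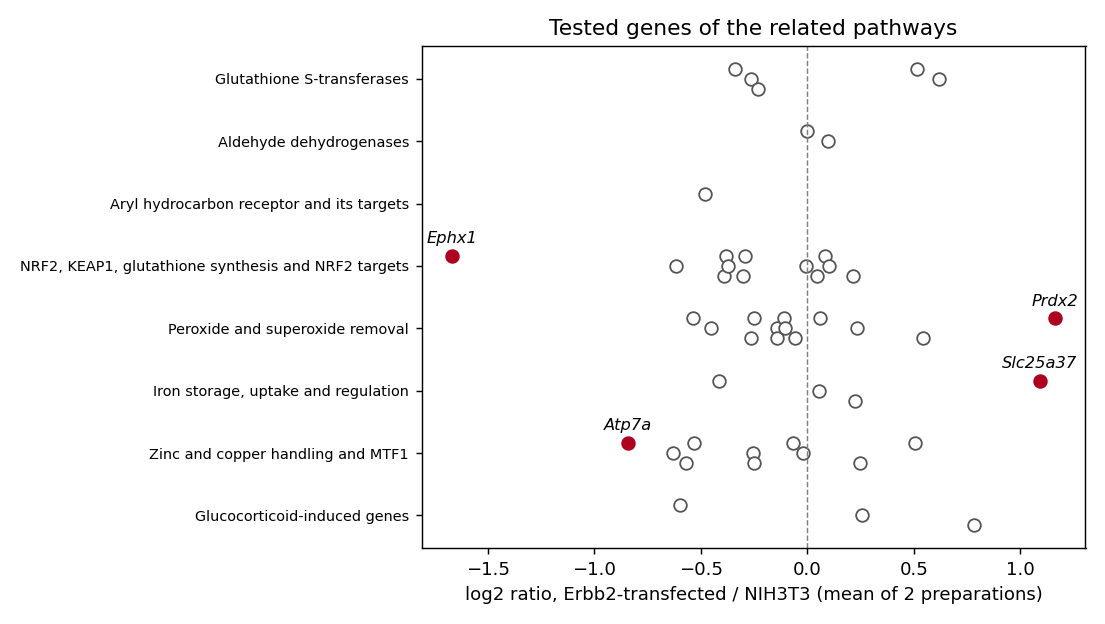
Mean log2 ratio of the 2 preparations (Erbb2-transfected over NIH3T3, x axis) of 50 tested genes in 8 lists of related pathways (y axis), with filled points for genes past an adjusted p of 0.05 in limma. Filled points are Ephx1 and Atp7a on the left and Prdx2 and Slc25a37 on the right, and the other genes lie between -0.63 and 0.78.

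Genes with the pattern nearest to each member were found by the root mean square difference of log2 ratios over the arrays with a value, among 2006 genes with 5 values. For Mt2 these were 1110001P04Rik, Npm1 and Hnrnpab, at 0.12, 0.16 and 0.21. For Fth1 they were Sh3d19, Slc44a1 and Ifitm1, at 0.23, 0.24 and 0.29. For Aldh3a1 they were Copz2, Pdia4 and Tulp4, at 0.34, 0.40 and 0.44. Gstm1 had no gene as near among those with 5 values, with Pfkp, Gas1 and Snx18 at 0.73, 0.84 and 0.84. Each of these lay below Gstm1 on A3. Gstm2, with no value on A3, did not enter this search and was at 0.38 from Gstm1 on 4 arrays. For Mt1 on 4 arrays, among 2660 genes, Ints7, Dnajc18 and 2210010C04Rik were nearest, at 0.13, 0.13 and 0.14. Between the members, Aldh3a1 and Fth1 were nearest, at 0.60 on 5 arrays, and Mt1 and Mt2 differed by 0.87 on 4 arrays.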

How the data were processed

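Images were taken and read with GenePix, and the authors subtracted background from mean intensities and set the median ratio of an array to 1, per the labels. What was deposited is a log2 ratio of both dyes; the base was inferred from the values, and no rule for empty values is stated. Ratios were turned to Erbb2 over NIH3T3 with Cy5 as numerator. Of 20205 probes, 11723 had 1 gene symbol, and those of a gene were averaged. For each preparation, arrays of one orientation were averaged, then the orientations. The 4892 features with both orientations in both preparations were tested with lmFit and eBayes in limma 3.58.1 (R 4.3.3), with Benjamini-Hochberg adjustment over all features at 0.05. Preparation and dye effects came from 5 arrays. In the fit of the 2 preparation means, the 1 residual degree of freedom per feature is joined by 10.2 prior ones pooled over features. The fit on 5 arrays had 13.5 prior ones. The number of arrays limits the precision.

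Members and lists were chosen with earlier results of these data known. Named genes are all members, list genes past the threshold, up to 3 more per list by size among those with 4 or more arrays, and the 3 nearest patterns per member. Gsta2, Gsta4, Gsto1, Gsto2, Gstp1, Gstz1, Gstm3, Gstm5, Gstm7, Aldh3a2, Cyp1b1 and Mt3 fall outside this rule and were chosen after their values were seen. Alternatives covered replication, probes, scaling, dim spots, threshold and each array. The script was tested on simulated data. Figures were drawn with matplotlib 3.10.9.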

Additional observations from a re-analysis of the deposited data

Results flagged for a closer look

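One gene had an array apart from the rest. Ncoa4 had -0.0364 on B2 against -2.23 to -1.86 on A1, A2 and B1. This was 1 of 31 genes checked with 4 or more arrays, and about 5% would be picked out by chance. On that array Fth1 had -1.56, the lowest of its 5 values. B2 was also the only array of Ncoa4 with Erbb2 cDNA in Cy5, as Ncoa4 had no value on A3. For Ncoa4 an odd array and the dye orientation thus cannot be told apart.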

How the results depend on the processing

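The mean ratios of Aldh3a1, Gstm1, Fth1 and Mt2 kept their sign in every alternative, those without each array included; that of Mt1 ranged from -0.27 without dim spots to 0.28 without A2. The 332 calls over all features became 564 with only probes measured in both orientations of both preparations, 124 after scaling to equal spread, 193 after quantile normalization, 200 without dim spots (1289 features tested), 120 at an adjusted p under 0.01 and 198 to 498 without 1 array (without B2 and A1); it was 219 without A3 and 211 without B1. The share of higher calls was 33.1%, and 24.2% and 29.5% after both scalings. It was 21.7% at 0.01, 19.4% without B1 and 42.9% without B2. With Cy3 as numerator these shares would be 66.9%, 75.8%, 70.5%, 78.3%, 80.6% and 57.1%.

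The 4 list genes called became 2 without dim spots (20 tested), 2 at an adjusted p under 0.01 and 2 to 7 without 1 array. Prdx2 passed in every setting, and Ephx1 in each but that without A2, where it was not tested. Calls between preparations numbered 1 to 25 without 1 array, with 25 without A1 or A2 and 3 without B2. The replicate block in place of the dye term gave 1; the shared numbers mark arrays of different dye orientation (A2 and B2) and nothing says that they share material. The 29 dye calls became 18 with only probes measured throughout, 7 after scaling, 7 without a preparation term, chosen after seeing the data, and 2 to 256 without 1 array: 256 without A1, 56 without A2, 2 without A3 or B1 and 4 without B2. Small uncalled effects changed sign: for Mt2, A minus B was -0.12 after scaling and -0.0717 to 0.24 without 1 array, and its dye effect -0.25 to 0.0563; for Fth1, A minus B was -0.65 to 0.17. The causes were not tested.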
